A study of Arabidopsis thaliana with 56 samples.

Results

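The response of Arabidopsis thaliana root cells to nuclear entry of the transcription factor (TF) DIV2 was measured by RNA sequencing in 3 DIV2 libraries, set against 3 empty vector (EV) libraries of the same batch. These members were taken from the titles, which name the TF, the replicate and the batch, and they are 3 DIV2 libraries of 56 libraries in the whole series. The same batch, batch 2, held 21 libraries in all, and its other 15 libraries came from cells that received 1 of 5 other TFs (GBF2, HSFA6A, MYB3, MYBR1 or WRKY33). They served as a second reference. All libraries came from protoplasts, cells freed of their walls, made from roots of Col-0 seedlings aged 10 days. The cells of every group, EV included, received 35 µM cycloheximide, which blocks protein synthesis, and 10 µM dexamethasone. They were sorted on the fluorescent marker of their plasmid, which was red or green in the study's methods. The methods list EV with the red marker, and the titles do not give the marker of DIV2 or the other TFs. If the markers of DIV2 and EV differed, an effect of the plasmid or the sort cannot be told apart from one of DIV2. In the TARGET assay the TF is made as a fusion with a steroid receptor domain that keeps it out of the nucleus until dexamethasone is added, so that nuclear entry takes place while new proteins cannot accumulate. The cells carried the plasmid overnight before cycloheximide, and no DIV2 library lacked dexamethasone. Effects of DIV2 made before dexamethasone was added thus cannot be told apart from those of its nuclear entry. The replicates of a TF were wells filled from a transfection, and no label says that they were separate cultures, so the p-values measure the spread between these libraries.

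DIV2 belongs to the R-R-type MYB proteins, whose second repeat carries the SHAQKYF motif. The family is named after DIVARICATA of Antirrhinum, which shapes the lower petals and is held in check by the small MYB protein RADIALIS. Proteins of this kind bind DNA words such as TATCCA and the I-box, and Arabidopsis DIV2 has been studied in salt stress and in the response to abscisic acid (ABA), the hormone that plants use to signal water shortage. In that pathway ABA binds receptors of the PYL family, the receptors then inhibit the clade A PP2C phosphatases, and SnRK2 kinases freed from the phosphatases activate bZIP transcription factors.

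The deposited tables held a whole read count per gene. Totals ran from 12145808 to 15423583 counts in the DIV2 libraries and from 12975619 to 19914633 in the EV libraries, and 4 loci beside the annotated ribosomal RNA genes took 8.71 to 38.9% and 5.66 to 25.1% of them. Counts outside these loci ranged from 8965129 to 17061909 over the 6 libraries. In the libraries of the other TFs these loci took 4.32 to 78.1%, and counts outside them ran from 5603969 to 18217711. MYBR1 replicate 1 had both the 78.1% and the 5603969, which limits the second reference. As a check of the labels, the DIV2 gene (AT5G04760, chr5:1373530-1374787) stood at 2898, 3028 and 3208 CPM (read counts relative to a library's total, with edgeR's TMM scaling) in the DIV2 libraries and at 178, 185 and 196 CPM in the EV libraries. Reads from the plasmid and from the chromosome cannot be told apart, and this gene was left out of all counts below.

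Many genes differed in level between DIV2 and EV, in both directions. Of 17686 genes tested, 2155 were induced and 2088 repressed at a false discovery rate (FDR, Benjamini-Hochberg) under 0.05 in edgeR's quasi-likelihood test, which is 24% of the genes tested (12.2% induced and 11.8% repressed). Large changes were more frequent on the induced side, where 497 of the induced genes (23.1%) and 204 of the repressed genes (9.77%) changed more than 4-fold, respectively. The median log2 fold change of all genes tested was -0.0079, so a list of genes with no common response would be centred near 0. Leaving out EV replicate 2 lowered the repressed genes to 1362 and the induced genes to 1578, and among the genes called with all 6 libraries none changed sign without any 1 library.

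**Figure D1:**
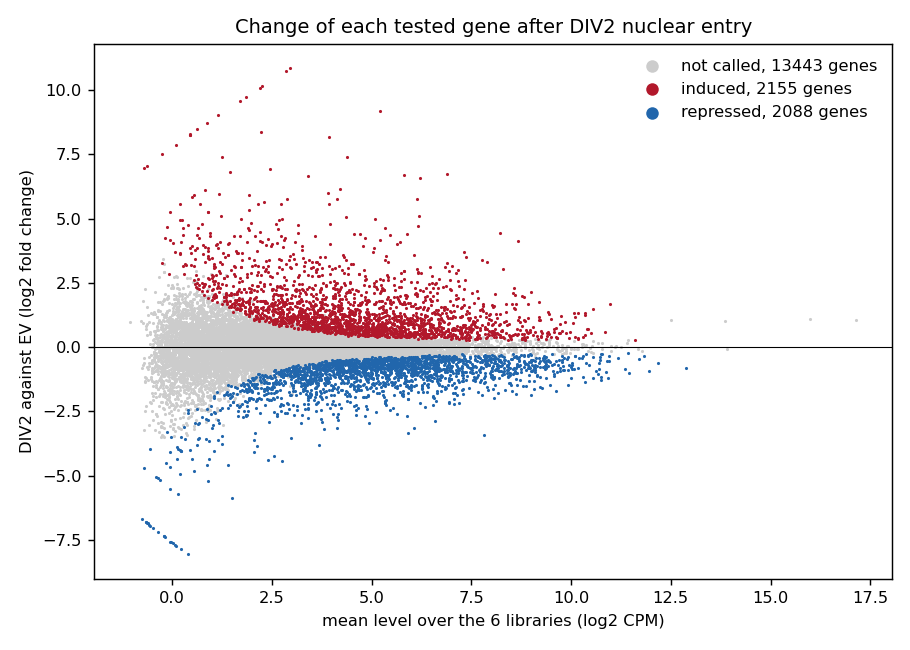
Each point is a tested gene, with the mean level over the 6 libraries in log2 CPM on the horizontal axis and the log2 fold change of DIV2 against EV on the vertical axis. The 2155 induced genes in red reach larger changes than the 2088 repressed genes in blue, and the diagonal streaks at the left are genes at 0 counts in a whole group, whose fitted fold is not a bound.

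Among nuclear genes with a mean level of at least 3 on the log2 CPM scale, genes of sugar transport led the induced side. STP2 (AT1G07340, chr1:2254822-2256850), a plasma membrane symporter that brings monosaccharides into the cell with protons, stood at 68.6, 73.0 and 79.7 CPM in the DIV2 libraries and 0, 0 and 0.40 CPM in the EV libraries (log2 fold change 9.17 ± 0.42 (SE), edgeR adjusted p = 2.7e-08). SWEET14 (AT4G25010, chr4:12854385-12856541), a member of the SWEET family of passive sugar carriers, stood at 31.5, 30.9 and 28.3 CPM in the DIV2 libraries and 0, 0.24 and 0 CPM in the EV libraries (log2 fold change 8.16 ± 0.45 (SE), edgeR adjusted p = 9.6e-08). Transcripts of both were close to the limit of detection in EV and present in every DIV2 library. The sizes of these fold changes rest on the 1 EV library that held counts. Without it (EV replicate 3 for STP2, EV replicate 2 for SWEET14) the fitted log2 values were 13.10 and 11.69, which measure no size since the EV group then has no count, and STP2 was at 8.44 without EV replicate 2. SWEET8 (AT5G40260, chr5:16089678-16091797), known for its part in pollen wall formation, reached 96.3, 158 and 188 CPM after DIV2 against 0.56, 1.84 and 2.07 CPM in EV (log2 fold change 6.59 ± 0.34 (SE), edgeR adjusted p = 6.4e-08). STP14 (AT1G77210, chr1:29008901-29012096), a galactose carrier, rose from 0.070, 0.71 and 0.67 CPM to 23.9, 29.9 and 55.7 CPM (log2 fold change 6.15 ± 0.47 (SE), edgeR adjusted p = 1.2e-06). In each of these 4 genes the lowest DIV2 library lay above the highest EV library, as the rule for choosing them required.

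Over the 42 STP, SWEET, sucrose, polyol and ERD6-like carriers, a list written after these values had been seen, 10 of 22 tested members rose and 1 fell (median log2 fold change 0.70). Those that rose included SUC1, a sucrose/proton symporter (log2 fold change 3.39 ± 0.27), STP1, a major importer of monosaccharides (2.07 ± 0.09), ERDL6, a vacuolar glucose exporter (1.61 ± 0.11), and the monosaccharide importer STP4 (1.27 ± 0.10). The member that fell was MSS1, better known as STP13, a hexose importer linked to defence, at 779, 775 and 788 CPM in the DIV2 libraries and 1733, 1722 and 1782 CPM in the EV libraries (log2 fold change -1.16 ± 0.08 (SE), edgeR adjusted p = 3.9e-07). The carriers thus did not all move one way, and 2 fell without DIV2 replicate 3 or in the model over the 21 libraries of batch 2.

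The other genes among the 12 most induced had mixed functions. CBSX5 (AT4G27460, chr4:13732832-13734531), of the cystathionine beta-synthase domain proteins, rose from 3.28, 2.31 and 1.07 CPM to 260.4, 251 and 198 CPM (log2 fold change 6.73 ± 0.26). FAR1 (AT5G22500, chr5:7470328-7474133), which reduces fatty acids to the primary alcohols of suberin, went from 0.14, 0.33 and 0.20 CPM to 36.1, 37.9 and 50.4 CPM (log2 fold change 7.41 ± 0.30), and AT3G59480, annotated as a sugar kinase of the pfkB type, from 1.75, 1.37 and 0 CPM to 104, 104 and 125 CPM (log2 fold change 6.70 ± 0.42). Among these genes 3 were transcriptional regulators, namely MYB115 (log2 fold change 6.68 ± 0.50, or 7.47 without EV replicate 3), a MYB of embryo and seed, ABS2 (5.75 ± 0.21), a B3-domain protein, and AT4G28140 (5.58 ± 0.28), of the AP2/ERF family. The kinase AT4G14780 (5.76 ± 0.36) and the uncharacterised AT3G06070 (5.99 ± 0.26) completed the group. FAR1 and AT3G59480 overlap an annotated gene on the opposite strand. The strand setting of the counting is not given in the sources used here, so the reads of such pairs cannot be told apart, and the same holds for STP1, ERDL6, SNRK2-8, SNRK2.3, ABF1, ABF3, ABF4, PYL7, ABI1, AAO3, P5CS1, ATTPPA, FRK1, SOBIR1, BAK1, FLS2, SARD1, EDS5, CRK42, KCS2, CASP1, GSO1, DELTA-TIP, HTB9, LHT7, RAB18, AT5G08520 and AT1G77530 below, while ABCB4 and EMB1290 overlap a gene on their own strand.

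The 12 most repressed genes changed less. EXPA4 (AT2G39700, chr2:16543832-16545746), an expansin that loosens the cell wall, fell from 451, 405 and 379 CPM to 37.0, 42.4 and 36.2 CPM (log2 fold change -3.42 ± 0.12 (SE), edgeR adjusted p = 3.4e-09). PRN (AT3G59220, chr3:21893812-21895789), a pirin that binds the G-protein alpha subunit, fell from 126, 104 and 99.5 CPM to 7.58, 11.6 and 13.1 CPM (log2 fold change -3.35 ± 0.19 (SE), edgeR adjusted p = 1.1e-07). RK3 (AT4G21380, chr4:11388827-11393226), a receptor kinase with an S-locus domain, stood at 20.5, 20.5 and 28.7 CPM in the DIV2 libraries and 163, 172 and 175 CPM in the EV libraries (log2 fold change -2.87 ± 0.15 (SE), edgeR adjusted p = 5.6e-08). In each of the 3 genes the highest DIV2 library lay below the lowest EV library, which the rule for choosing them required. The others were the peroxidase AT5G19880 (log2 fold change -3.82 ± 0.51, or -4.54 without DIV2 replicate 1 and -3.23 without DIV2 replicate 3), the amino acid carrier LHT7 (-3.13 ± 0.37, or -3.87 without DIV2 replicate 1), the receptor-like kinase RLK1 (-2.79 ± 0.26), and AT3G06130 (-3.19 ± 0.35), AT3G46110 (-3.13 ± 0.16), AT5G52390 (-2.94 ± 0.24), AT3G59880 (-2.93 ± 0.36), AT2G37440 (-2.90 ± 0.32) and AT5G38200 (-2.82 ± 0.19).

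**Figure D2:**
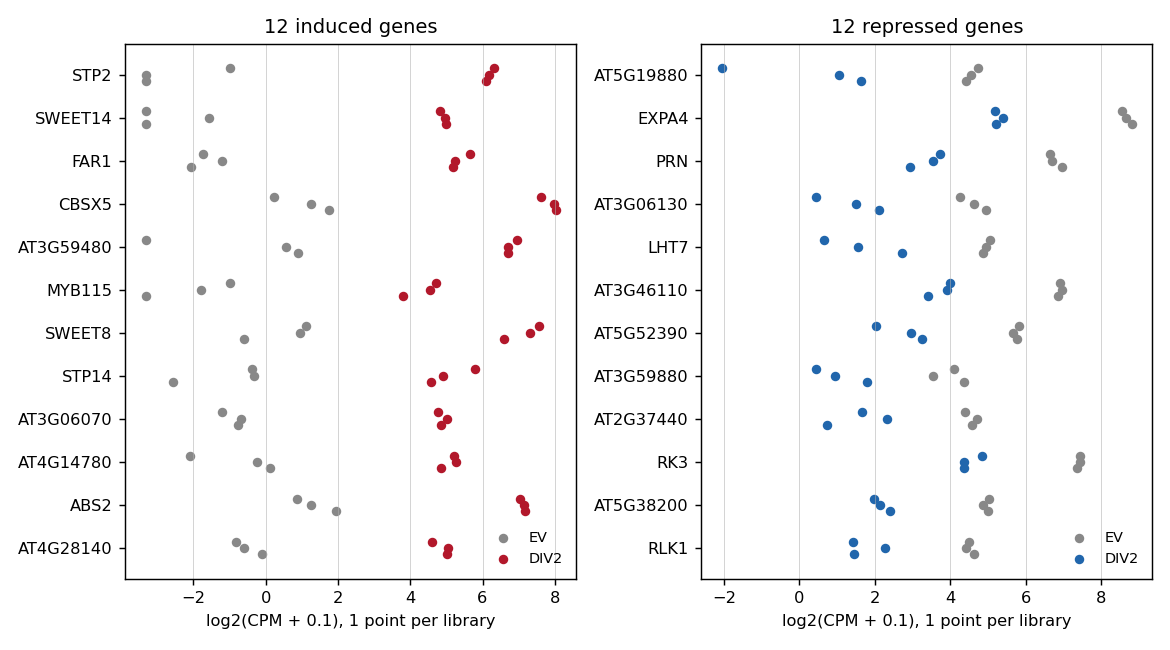
The 12 most induced genes (left, DIV2 in red) and the 12 most repressed genes (right, DIV2 in blue) are shown with 1 point per library on a log2(CPM + 0.1) axis, EV libraries in grey. In every gene shown all 3 DIV2 points lie on the same side of all 3 EV points, which the choice of genes required.

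Promoters of the strongly induced genes were searched for the words that R-R-type MYB proteins bind, on either strand. In the 250 bases before the annotated start, 6 of the 12 most induced genes and 2 of the 12 most repressed genes held TATCCA or the I-box word GATAAG. Over all tested protein-coding genes, the first word stood in 13.9% of these windows and the I-box word in 12.1%. The first word was in 5 of the 12 most induced and 1 of the 12 most repressed genes, and the I-box word in 4 and 1. The share of all promoters with either of these words was not counted. The 3 promoters below held 2 or more of these words, shown in capitals (overlapping words in AT3G06070 form 1 run), and are given because the sugar carrier STP2, the gene with the largest fold change of the 12, carried 3 of them. Sequences and starts are those of RefSeq on TAIR10.1, written 5′ to 3′ on the strand of the gene. They lie at chr1:2254572-2254821 (plus strand), chr3:21982739-21982988 (plus strand) and chr3:1832191-1832440 (minus strand).
STP2: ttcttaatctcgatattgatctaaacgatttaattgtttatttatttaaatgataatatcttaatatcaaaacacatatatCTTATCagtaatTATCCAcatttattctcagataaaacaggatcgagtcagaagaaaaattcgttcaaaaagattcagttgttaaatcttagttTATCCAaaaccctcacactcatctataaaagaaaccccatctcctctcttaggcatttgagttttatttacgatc
AT3G59480: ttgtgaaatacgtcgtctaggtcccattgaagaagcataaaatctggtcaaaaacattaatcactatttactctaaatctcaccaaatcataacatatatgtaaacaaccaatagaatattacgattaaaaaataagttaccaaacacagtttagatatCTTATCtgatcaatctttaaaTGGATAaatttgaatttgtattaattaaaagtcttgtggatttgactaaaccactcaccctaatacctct
AT3G06070: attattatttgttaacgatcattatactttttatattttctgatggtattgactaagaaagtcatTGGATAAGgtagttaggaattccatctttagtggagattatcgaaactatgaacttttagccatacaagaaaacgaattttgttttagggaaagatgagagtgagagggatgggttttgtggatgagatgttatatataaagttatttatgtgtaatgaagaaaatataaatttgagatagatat

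Among all tested protein-coding genes, on either strand of a window from 250 bases before to 50 after the start, TATCCA was found in 16.2% (15.7 to 16.8%) of promoters (95% Wilson interval in brackets). The share was 21.7% (20.0 to 23.5%) among induced and 15.2% (13.7 to 16.8%) among repressed genes. GATAAG was found in 14.4% (13.9 to 14.9%) of all, 19.8% (18.2 to 21.6%) of induced and 11.6% (10.3 to 13.1%) of repressed promoters. Both words were more frequent among induced than among repressed promoters, with intervals that did not overlap. Among genes induced over 4-fold the shares were 19.5% (16.2 to 23.3%) and 23.0% (19.5 to 27.0%). Among genes repressed over 4-fold they were 15.1% (10.8 to 20.7%) and 14.1% (9.92 to 19.6%), and for both words these intervals overlapped. The evening element AAATATCT, bound by other MYB proteins, was in 5.81% (5.47 to 6.17%) of all promoters. Its share was 7.53% (6.48 to 8.73%) among induced and 5.56% (4.65 to 6.63%) among repressed genes.

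The widest gap belonged to the W-box, TTGAC followed by C or T, the word that WRKY proteins bind. It was found in 34.6% (33.9 to 35.3%) of all promoters, 31.1% (29.2 to 33.1%) of induced and 53.5% (51.3 to 55.6%) of repressed promoters. Among genes changed over 4-fold it was in 44.2% (37.5 to 51.2%) of repressed and 28.2% (24.4 to 32.4%) of induced promoters. Counts were equal in the 12 genes with the largest change in each direction. A W-box word stood in the 250 bases before the start in 5 of the 12 most induced and 5 of the 12 most repressed genes, and the induced SWEET8 held 3. Words for CAMTA factors (CGCG after A or C and before G or T) stood in 6.01% (5.67 to 6.38%) of all and 9.66% (8.47 to 10.99%) of induced promoters, but in 5.39% (3.71 to 7.79%) of those induced over 4-fold, and the G-box CACGTG in 8.72% (8.31 to 9.15%) and 10.4% (9.14 to 11.7%). The GCC box GCCGCC, bound by ERF proteins, was in 2.79% (2.56 to 3.05%) of all, 2.32% (1.76 to 3.05%) of induced and 2.42% (1.84 to 3.17%) of repressed promoters, and these intervals overlapped. The shares are descriptions of these windows, the mean GC content was 32.2% over all and 31.3% in both the induced and the repressed promoters, and occupancy was not measured here. RLK1 (chr5:24501771-24502020, minus strand) and AT5G52390 (chr5:21265461-21265710, minus strand) are shown because they held the most W-box words, 2 each and in capitals, among the 12 most repressed genes.
RLK1: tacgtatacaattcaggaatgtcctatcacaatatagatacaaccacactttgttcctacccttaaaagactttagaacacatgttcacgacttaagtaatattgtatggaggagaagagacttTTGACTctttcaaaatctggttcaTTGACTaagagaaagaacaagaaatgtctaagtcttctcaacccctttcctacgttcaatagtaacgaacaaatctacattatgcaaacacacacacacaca
AT5G52390: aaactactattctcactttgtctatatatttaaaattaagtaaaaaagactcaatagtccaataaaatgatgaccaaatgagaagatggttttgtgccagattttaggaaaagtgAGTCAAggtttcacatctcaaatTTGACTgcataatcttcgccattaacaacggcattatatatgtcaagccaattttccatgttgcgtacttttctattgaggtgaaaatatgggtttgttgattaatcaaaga

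Genes of the ABA pathway that changed were mostly induced, most of all among its negative regulators. Of the clade A PP2C phosphatases, which shut the pathway off when ABA is absent, 7 of 8 tested members rose (median log2 fold change 0.99). HAI3 went from 2.65, 1.13 and 1.33 CPM to 14.8, 12.8 and 14.5 CPM (log2 fold change 3.06 ± 0.34 (SE), edgeR adjusted p = 2.5e-05). HAI2 stood at 68.1, 56.3 and 53.4 CPM in the DIV2 libraries and 20.9, 14.98 and 15.7 CPM in the EV libraries (log2 fold change 1.79 ± 0.17 (SE), edgeR adjusted p = 5.9e-06). Smaller rises were seen for HAI1 (log2 fold change 1.25 ± 0.21), ABI2 (1.22 ± 0.25), PP2CA (0.77 ± 0.23), HAB1 (0.74 ± 0.18) and HAB2 (0.40 ± 0.11), while ABI1 had a log2 fold change of 0.32 ± 0.17 and did not pass (edgeR adjusted p = 0.22). The calls of the last 3 that rose depended on the libraries and the model, with 4 members called without EV replicate 2 and 4 without EV replicate 3. PP2CA was lost without any 1 of DIV2 replicates 1 and 2 and EV replicates 2 and 3 (edgeR adjusted p of 0.11, 0.109, 0.142 and 0.143) and with all 9 EV libraries and a batch term (0.0513), HAB1 without EV replicate 2 or 3 (0.0564 and 0.059), and HAB2 without DIV2 replicate 2 or any EV replicate (0.0608, 0.0749, 0.117 and 0.0633) and in the model over the 21 libraries of batch 2 (0.0663). ABI1 passed without DIV2 replicate 3 (edgeR adjusted p = 0.0238).

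Upstream, 3 of 7 tested members rose (median log2 fold change 0.29). PYL5 stood at 58.6, 54.5 and 54.1 CPM in the DIV2 libraries and 11.5, 10.2 and 10.9 CPM in the EV libraries (log2 fold change 2.36 ± 0.14 (SE), edgeR adjusted p = 1.5e-07), a clear separation. PYL7 rose from 4.33, 3.72 and 4.80 CPM in EV to 9.29, 12.2 and 22.7 CPM (log2 fold change 1.79 ± 0.33), and PYL4 rose less (0.29 ± 0.10), a call lost without any 1 library other than DIV2 replicate 3 (edgeR adjusted p from 0.0929 to 0.181), without the filter on low counts (0.099), with all 9 EV libraries and a batch term (0.218) and in the model over the 21 libraries of batch 2 (0.136). Among the SnRK2 kinases 3 of 8 tested members rose (median log2 fold change 0.17). SNRK2-8, of a subgroup that ABA activates weakly, went from 6.91, 4.90 and 4.07 CPM to 125, 145 and 147 CPM (log2 fold change 4.72 ± 0.18 (SE), edgeR adjusted p = 7.1e-09), the largest change among the called members of the receptor, phosphatase, kinase and bZIP lists. SNRK2.9 (log2 fold change 1.84 ± 0.34) and SNRK2.10 (1.03 ± 0.19) also rose. OST1, the kinase of guard cells, stood at 0.98, 0.99 and 0.63 CPM in the DIV2 libraries and 2.24, 1.84 and 1.53 CPM in the EV libraries (edgeR adjusted p = 0.29), and SNRK2.2 (0.01 ± 0.19) and SNRK2.3 (0.27 ± 0.17), which act with it in seeds and roots, did not pass the test. 

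Among the ABA-response bZIPs, which read the signal out at promoters, 3 of 8 tested members rose (median log2 fold change 0.15). They were ABF1 (log2 fold change 1.38 ± 0.28), ABF3 (0.79 ± 0.19) and ABF4 (0.47 ± 0.13), and without EV replicate 3 only 1 of the 8 was called. The call of ABF3 was lost without EV replicate 2 or 3 (edgeR adjusted p = 0.0537 and 0.0569) and that of ABF4 without DIV2 replicate 2 or EV replicate 1 or 3 (0.0736, 0.0915 and 0.0581). ABF2 (-0.67 ± 0.40) and ABI5 (0.21 ± 0.76) did not pass. Both ends of hormone turnover rose, since NCED3, which catalyses the rate-limiting cleavage in ABA synthesis, stood at 280.4, 242 and 210.2 CPM in the DIV2 libraries and 77.2, 62.3 and 60.6 CPM in the EV libraries (log2 fold change 1.87 ± 0.14 (SE), edgeR adjusted p = 8.0e-07), and CYP707A3, which inactivates ABA, at 407, 434 and 364 CPM in the DIV2 libraries and 139, 141 and 119 CPM in the EV libraries (log2 fold change 1.60 ± 0.11 (SE), edgeR adjusted p = 4.5e-07). AAO3, of the last step of synthesis, fell (log2 fold change -0.87 ± 0.11).

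**Figure D3:**
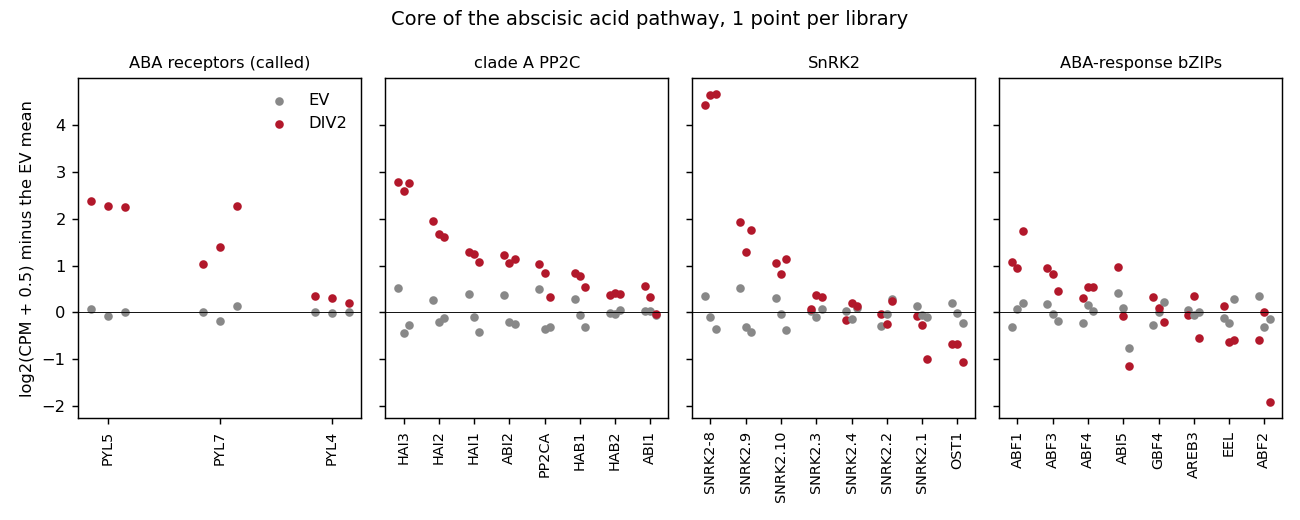
Each point is a library, plotted as log2(CPM + 0.5) minus the mean of the EV libraries, for the called ABA receptors and all tested clade A PP2C phosphatases, SnRK2 kinases and ABA-response bZIPs (EV grey, DIV2 red). SNRK2-8, HAI3 and PYL5 stand highest, and OST1, ABI5 and ABF2 have DIV2 and EV points that overlap or lie below 0.

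The marker genes of dehydration and cold were induced as a rule. Of these, 11 of 15 tested members rose (median log2 fold change 1.53), and ERD1, a chloroplast protease subunit, named after its values were seen, had a log2 fold change of -0.51 ± 0.20 and did not pass (edgeR adjusted p = 0.083). It passed as a repressed member with DESeq2, without the filter on low counts, in the model over the 21 libraries of batch 2 and without DIV2 replicate 1. KIN1 went from 2.30, 3.81 and 4.0 CPM to 21.6, 25.3 and 24.3 CPM (log2 fold change 2.80 ± 0.24). LTI78, also known as RD29A, went from 36.8, 25.9 and 20.7 CPM to 157, 170.2 and 139 CPM (2.48 ± 0.18), and the dehydrin COR47 from 139, 131 and 117 CPM to 644, 654 and 603 CPM (2.30 ± 0.10). Rises were also called for XERO1, another dehydrin (log2 fold change 2.78 ± 0.38), LTI65 or RD29B (2.02 ± 0.31) and the NAC factor RD26 (1.53 ± 0.15). RAB18, a dehydrin often used to report ABA, was at 9.29, 7.12 and 11.4 CPM in the DIV2 libraries and 14.2, 7.49 and 3.0 CPM in the EV libraries and did not pass (edgeR adjusted p = 0.82), nor did P5CS1 of proline synthesis (log2 fold change 0.09 ± 0.16).

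Trehalose metabolism and genes of low energy status rose in part. Among trehalose, galactinol and raffinose enzymes 11 of 22 tested members rose and 4 fell (median log2 fold change 0.77). The class II trehalose-phosphate synthase proteins were prominent, with TPS9 at 581, 598 and 514 CPM in the DIV2 libraries and 64.2, 67.2 and 75.2 CPM in the EV libraries (log2 fold change 3.03 ± 0.11 (SE), edgeR adjusted p = 4.7e-09), TPS8 going from 155, 154 and 148 CPM to 642, 679 and 562 CPM (log2 fold change 2.04 ± 0.10) and both TPS11 (log2 fold change 1.83 ± 0.13) and TPS10 (1.60 ± 0.11) rising. Phosphatases of the same pathway fell, among them TPPJ (log2 fold change -2.21 ± 0.44, or -2.94 without DIV2 replicate 2), ATTPPA (-1.40 ± 0.20) and TPPG (-0.65 ± 0.12). In the list of sugar starvation and low-energy markers, 13 of 24 tested members rose and 1 fell (median log2 fold change 0.89). BT2, a BTB-TAZ scaffold protein that responds to sugar and nitrate, went from 1.54, 2.12 and 2.60 CPM to 70.2, 65.2 and 63.6 CPM (log2 fold change 4.98 ± 0.19 (SE), edgeR adjusted p = 6.8e-09). TPS8 to TPS11 belong to both lists, so the counts share members. DIN2, a glycosyl hydrolase, was the member that fell (log2 fold change -0.55 ± 0.17), a call lost without DIV2 replicate 1, EV replicate 1 or EV replicate 2 (edgeR adjusted p = 0.0972, 0.169 and 0.0631) and with all 9 EV libraries and a batch term (0.358).

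Several families of transcription factors were induced more often than the 12.2% of all genes. Of the NAC factors, 28 of 68 tested members rose and 3 fell (median log2 fold change 0.49). NAM (AT1G52880), a NAC factor of seed and embryo development, went from 2.30, 1.98 and 1.33 CPM to 17.8, 21.2 and 19.7 CPM (log2 fold change 3.38 ± 0.26 (SE), edgeR adjusted p = 1.3e-06), and NAC061 (log2 fold change 3.92 ± 0.36) and NAC058 (3.25 ± 0.31) also rose. The repressed NAC factors numbered 1 without EV replicate 2 or 3, 5 without DIV2 replicate 2 or the filter on low counts and 6 without DIV2 replicate 3. Of ERF, RAP2 and DREB factors, 23 of 52 tested members rose and 8 fell (median log2 fold change 0.35). ERF104 stood at 318, 283 and 234 CPM in the DIV2 libraries and 46.5, 46.0 and 42.8 CPM in the EV libraries (log2 fold change 2.63 ± 0.13 (SE), edgeR adjusted p = 4.7e-08), and RAP2.10 (log2 fold change 2.53 ± 0.14) and DDF1, a DREB factor of gibberellin and stress responses (2.35 ± 0.15), rose too. ERF5, which acts in chitin responses, fell from 375, 329 and 286 CPM to 128, 119.8 and 124 CPM (log2 fold change -1.41 ± 0.11), and without EV replicate 2 the list had 5 repressed members.

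Among MYB domain proteins 21 of 70 tested members rose and 11 fell (median log2 fold change 0.37). MYB27 had no count in any EV library and 1.71, 5.38 and 1.89 CPM in the DIV2 libraries, at least 49.3-fold higher against a floor of 3 counts over the EV group. MYB2 fell from 685, 695 and 715 CPM to 242, 254 and 231 CPM (log2 fold change -1.53 ± 0.09), and MYB41, an activator of suberin genes, fell as well (-1.84 ± 0.34). Among HD-Zip and homeobox genes 13 of 52 tested members rose and 5 fell (median log2 fold change 0.33). HB21, which acts in bud dormancy, had no count in EV and 1.14, 3.47 and 3.15 CPM after DIV2, at least 44.0-fold higher on the same floor, and HB32 rose (log2 fold change 4.13 ± 0.42). Without EV replicate 1 there were 3 repressed members of this list.

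Among the closest relatives of DIV2, 1 of 5 tested was called. Of 13 R-R-type MYB relatives 5 passed the filter on low counts, and AT3G11280 rose (log2 fold change 0.97 ± 0.27), a call that was lost without DIV2 replicate 3, EV replicate 2 or EV replicate 3 (edgeR adjusted p = 0.0605, 0.0941 and 0.0996). The other 4 were AT5G01200 (log2 fold change 0.79 ± 1.08), AT5G05790 (0.09 ± 0.37), AT5G08520 (-0.16 ± 0.19) and AT5G58900 (-1.61 ± 1.10), of which AT5G58900 passed without DIV2 replicate 2 (edgeR adjusted p = 0.00644). No RADIALIS-like gene passed the filter on low counts.

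WRKY factors, which direct much of the immune response, moved both ways with more members down. Of these, 13 of 59 tested members rose and 22 fell (median log2 fold change -0.21). WRKY67 fell from 29.8, 28.8 and 31.9 CPM to 3.02, 6.21 and 5.45 CPM (log2 fold change -2.62 ± 0.24 (SE), edgeR adjusted p = 5.6e-06). WRKY55 stood at 25.5, 25.8 and 28.0 CPM in the DIV2 libraries and 135, 136 and 131 CPM in the EV libraries (log2 fold change -2.34 ± 0.11 (SE), edgeR adjusted p = 4.1e-08), and WRKY8 fell too (log2 fold change -1.76 ± 0.15). WRKY65 went up from 10.2, 8.85 and 7.46 CPM to 47.4, 44.5 and 48.7 CPM (log2 fold change 2.41 ± 0.16), and WRKY51 (2.24 ± 0.18), ABO3, the WRKY63 gene of ABA responses (2.29 ± 0.20), and WRKY75, of phosphate starvation (0.61 ± 0.13), rose.

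Receptors of pattern-triggered immunity were repressed more often than the 11.8% of all genes. Of the pattern receptors and their partners at the cell surface, 2 of 19 tested members rose and 12 fell (median log2 fold change -0.69). FRK1, a kinase gene used as a reporter of flagellin perception, went from 381, 428 and 398 CPM to 101, 130.4 and 158 CPM (log2 fold change -1.63 ± 0.14 (SE), edgeR adjusted p = 3.5e-06). BIK1, the kinase that passes the signal from several receptors, stood at 97.2, 112 and 125 CPM in the DIV2 libraries and 253, 279 and 297 CPM in the EV libraries (log2 fold change -1.31 ± 0.12 (SE), edgeR adjusted p = 4.0e-06). LYK4, a chitin receptor kinase, fell from 64.9, 56.6 and 58.6 CPM to 17.4, 22.4 and 23.1 CPM (log2 fold change -1.51 ± 0.15). No DIV2 library reached the lowest EV library in these 3 genes. Values for further receptors, chosen after they had been seen, were -1.20 ± 0.12 for the chitin receptor CERK1, -1.03 ± 0.09 for SOBIR1, -0.76 ± 0.10 for the co-receptor BAK1, -0.69 ± 0.09 for the flagellin receptor FLS2 and -0.48 ± 0.16 for the receptor of elongation factor Tu, EFR. Among the fits without 1 library, the call of EFR was kept only without DIV2 replicate 3 (edgeR adjusted p from 0.0508 to 0.159 without any 1 of the other 5 libraries). FER, a receptor of RALF peptides, rose (log2 fold change 0.44 ± 0.10).

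The cysteine-rich receptor kinases, a large family induced by pathogens and oxidative stress, were likewise repressed more often than induced, since 2 of 28 tested members rose and 16 fell (median log2 fold change -0.75). EMB1290 of this family went from 152, 155 and 164 CPM to 33.2, 38.5 and 40.0 CPM (log2 fold change -2.08 ± 0.12 (SE), edgeR adjusted p = 9.7e-08) and CRK20 from 27.9, 27.5 and 28.1 CPM to 3.02, 4.80 and 9.58 CPM (log2 fold change -2.25 ± 0.32). CRK36 rose (log2 fold change 1.50 ± 0.31). CRK42 was the member with the largest change, with no count in EV and 3.26, 9.68 and 8.53 CPM after DIV2, at least 121.6-fold higher against the floor of 3 counts.

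Genes of salicylic acid synthesis and signalling split. In this list 7 of 18 tested members rose and 4 fell (median log2 fold change -0.01), the median lying just below 0. SARD1, which activates the synthesis genes, went from 28.4, 30.0 and 38.7 CPM to 141, 164 and 129.9 CPM (log2 fold change 2.16 ± 0.15 (SE), edgeR adjusted p = 4.3e-07), and PBS3, an enzyme of the synthesis, from 28.6, 45.0 and 39.5 CPM to 126, 179 and 181 CPM (log2 fold change 2.10 ± 0.18). EDS1, the lipase-like hub that works with PAD4 and SAG101, fell from 145, 153 and 155 CPM to 42.9, 53.5 and 68.0 CPM (log2 fold change -1.46 ± 0.15 (SE), edgeR adjusted p = 1.4e-05), and EDS5, which exports the precursor from plastids, fell as well (log2 fold change -1.34 ± 0.13). PAD4 rose (0.60 ± 0.12). With all 9 EV libraries and a batch term, 2 members of this list fell in place of 4.

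Antimicrobial metabolism and secretion had more repressed than induced members. Of camalexin and indole glucosinolate genes, 2 of 16 tested members rose and 6 fell (median log2 fold change -0.34), with 1 rising without DIV2 replicate 2 or EV replicate 2 or 3, or with all 9 EV libraries and a batch term. PAD3, of the last steps of camalexin synthesis, went from 47.5, 40.4 and 45.6 CPM to 14.2, 13.7 and 15.2 CPM (log2 fold change -1.63 ± 0.14 (SE), edgeR adjusted p = 4.1e-06), and PEN2, which activates indole glucosinolates against fungi, from 1444, 1458 and 1380.0 CPM to 430.0, 530.0 and 601 CPM (log2 fold change -1.46 ± 0.11). Of genes of secretion and membrane fusion, 2 of 26 tested members rose and 10 fell (median log2 fold change -0.27), with 1 rising without EV replicate 3. EXO70B2, an exocyst subunit in immunity, went from 608, 613 and 599 CPM to 288, 322 and 362 CPM (log2 fold change -0.90 ± 0.10 (SE), edgeR adjusted p = 2.5e-05), and EXO70H1 fell too (log2 fold change -1.58 ± 0.14). PATL1, a patellin of membrane traffic at the division plane, rose from 37.6, 27.0 and 23.3 CPM to 171, 179 and 149 CPM (log2 fold change 2.51 ± 0.17).

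**Figure D4:**
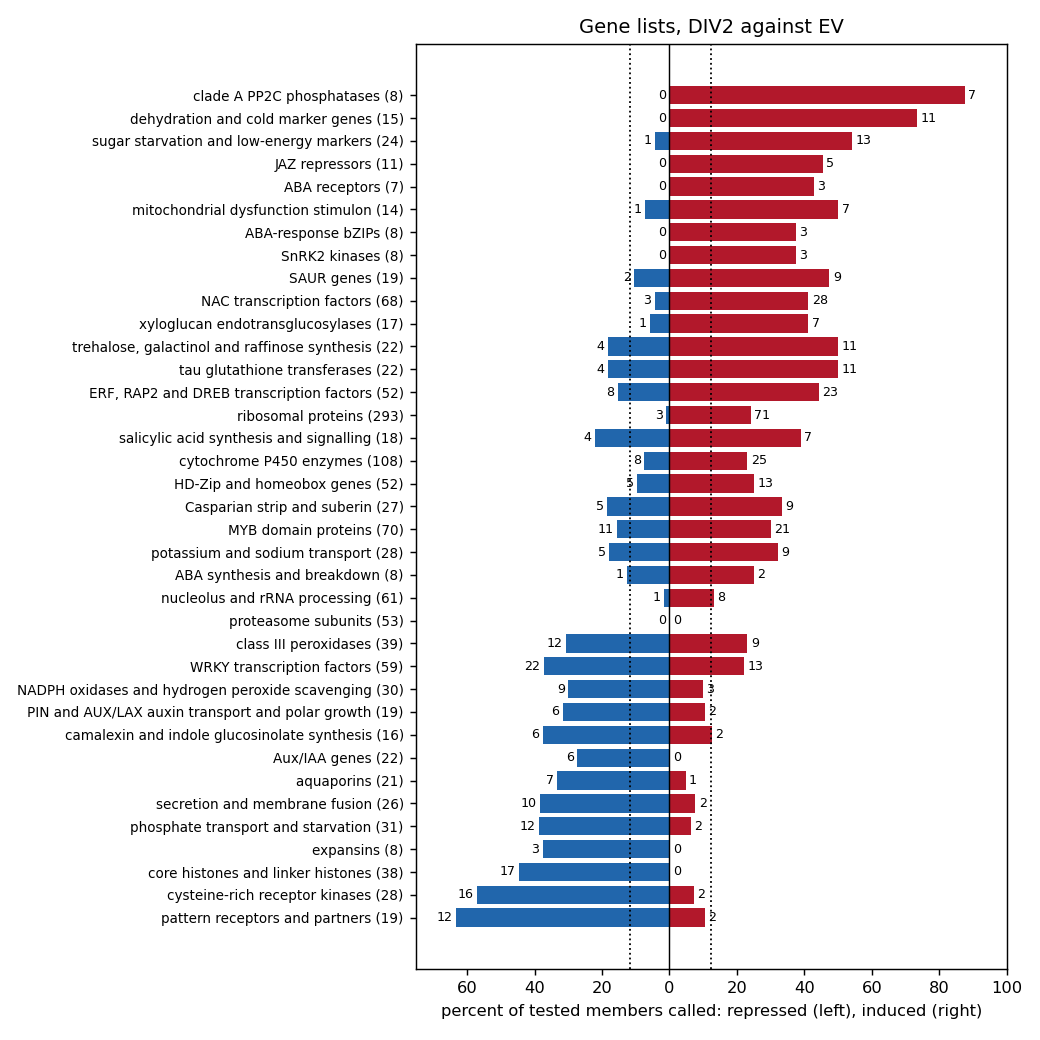
Bars give the percent of tested members called as induced (right, red) or repressed (left, blue) in DIV2 against EV for most of the lists described here and in the closing observations. The number called stands beside the bar and the number tested in brackets. Dotted lines mark 12.2% and 11.8%, the shares of all genes tested. ABA, dehydration and sugar starvation lists stand on the right, and receptor kinases, histones, phosphate and aquaporin genes on the left.

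Markers of root cell types moved too, and in sorted bulk samples fewer cells of a type and less RNA per cell cannot be told apart. Summed levels of the 7 markers of the suberised endodermis were 78.4 to 134 CPM in DIV2 and 40.3 to 58.7 CPM in EV, with 3 of 7 tested induced and none at 0. The 11 cortex and endodermis markers summed to 41.3 to 43.4 CPM in DIV2 and 65.2 to 74.5 CPM in EV (2 of 8 tested repressed), the 11 root hair markers to 5.79 to 7.20 CPM in DIV2 and 11.1 to 15.9 CPM in EV (1 of 4 tested repressed, MRH6 at 0 in all 6 libraries) and the 9 xylem markers to 8.85 to 22.9 CPM in DIV2 and 35.9 to 53.1 CPM in EV (2 of 6 tested repressed, HP6 and ACL5 at 0). Sums were also lower for the 9 meristem markers (49.6 to 54.1 CPM in DIV2, 63.3 to 73.6 CPM in EV). The 9 non-hair epidermis and root cap markers were lower as well (18.2 to 27.6 CPM in DIV2, 28.0 to 37.3 CPM in EV). For the 11 phloem markers the ranges overlapped (35.6 to 44.1 CPM in DIV2, 40.8 to 55.5 CPM in EV). Pericycle markers were at 506 to 618 CPM in DIV2 and 499.8 to 547 CPM in EV, with 0 of 7 called by edgeR and 1 higher by DESeq2 or at an unadjusted p under 0.05. Shoot mesophyll markers, which root cells should lack, summed to 82.6 to 124 CPM in DIV2 and 72.1 to 112 CPM in EV with 4 of 16 at 0, 0 of 4 tested called by edgeR, and 1 higher by DESeq2 or at an unadjusted p under 0.05. Their part in the results that follow was not tested.

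Genes of the Casparian strip and suberin, the barriers of the endodermis, went both ways. In this list 9 of 27 tested members rose and 5 fell (median log2 fold change 0.91). CYP86A1, the hydroxylase of suberin fatty acids, went from 1.19, 0.094 and 1.20 CPM to 21.6, 19.0 and 10.1 CPM (log2 fold change 4.43 ± 0.56 (SE), edgeR adjusted p = 8.1e-05, or 3.82 without EV replicate 2), and ABCG2, an exporter of suberin precursors, from 2.51, 3.39 and 3.67 CPM to 40.1, 32.7 and 36.4 CPM (log2 fold change 3.50 ± 0.20). KCS2, which elongates the acyl chains (2.51 ± 0.30), and MYB93, of the endodermis above lateral roots (1.87 ± 0.19), rose. CASP1, which scaffolds the Casparian strip, fell from 13.3, 22.8 and 15.3 CPM to 3.50, 5.46 and 5.18 CPM (log2 fold change -1.86 ± 0.27), and GSO1, the receptor that monitors the barrier, from 226, 209 and 213 CPM to 37.0, 51.5 and 70.8 CPM (-2.02 ± 0.19). CYP86A1 is itself a marker of the suberised endodermis and CASP1 of the cortex and endodermis list.

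Other genes of the wall and of water flow changed as well. Of xyloglucan endotransglucosylases, which cut and rejoin wall xyloglucan, 7 of 17 tested members rose and 1 fell (median log2 fold change 1.20), with XTR6 going from 560.4, 654 and 611 CPM to 1464, 1569 and 1612 CPM (log2 fold change 1.35 ± 0.09). With all 9 EV libraries and a batch term 4 of them rose, and without DIV2 replicate 2 there were 2 that fell. Of expansins, 3 of 8 tested members fell (median log2 fold change -1.35), led by EXPA4 above, and 1 fell without EV replicate 1 or with all 9 EV libraries and a batch term. Of aquaporins, the water channels of plasma membrane and vacuole, 1 of 21 tested members rose and 7 fell (median log2 fold change -0.82). DELTA-TIP went from 17.3, 17.0 and 13.4 CPM to 3.34, 6.54 and 0.42 CPM (log2 fold change -2.23 ± 0.56), or -3.12 without DIV2 replicate 2, a call that DESeq2 did not make (adjusted p = 0.0626). PIP2B fell (log2 fold change -1.40 ± 0.36), though 24% of its 50-base words occur elsewhere in the genome, and it did not pass without EV replicate 1 or with all 9 EV libraries and a batch term (edgeR adjusted p = 0.113 and 0.0549). With DESeq2 or without the filter on low counts 2 aquaporins rose, and in the model over 21 libraries 0 rose. Without EV replicate 1 only 1 aquaporin fell and 3 rose, without EV replicate 2 there were 3 that fell and without EV replicate 3 there were 4.

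Called genes of the Aux/IAA and auxin transport lists were mostly lower, and those of the SAUR list mostly higher. Of the GH3 amido synthetases 3 of 9 tested members rose and 3 fell (median log2 fold change 0.09). Of the Aux/IAA repressors, which auxin degrades, 6 of 22 tested members fell (median log2 fold change -0.29), or 1 up as well without DIV2 replicate 3, with IAA19 going from 83.1, 83.1 and 82.1 CPM to 24.4, 30.8 and 39.2 CPM (log2 fold change -1.39 ± 0.16 (SE), edgeR adjusted p = 3.2e-05). Among the auxin transport genes 2 of 19 tested members rose and 6 fell (median log2 fold change -0.52). PIN7, an efflux carrier, went from 31.6, 27.3 and 22.5 CPM to 12.2, 6.54 and 5.52 CPM (log2 fold change -1.75 ± 0.27), AUX1, the influx carrier, from 47.6, 40.1 and 38.9 CPM to 27.2, 15.1 and 9.02 CPM (-1.31 ± 0.30), and ABCB4 rose (1.32 ± 0.09). Of the SAUR genes, small auxin-induced proteins of cell expansion, 9 of 19 tested members rose and 2 fell (median log2 fold change 1.20), or 1 that fell without DIV2 replicate 1 or any EV replicate, with all 9 EV libraries or in the model over 21 libraries, with AT1G75590 going from 0.63, 0.28 and 0.60 CPM to 9.05, 10.0 and 16.9 CPM (4.60 ± 0.43). Of the JAZ repressors of jasmonate signalling, 5 of 11 tested members rose (median log2 fold change 0.33), and JAZ7 stood at 116, 102 and 78.0 CPM in the DIV2 libraries and 7.40, 5.13 and 5.07 CPM in the EV libraries (log2 fold change 4.08 ± 0.20 (SE), edgeR adjusted p = 4.8e-08).

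Phosphate genes were repressed more often than genes overall. In the list of phosphate transport and starvation, 2 of 31 tested members rose and 12 fell (median log2 fold change -0.65). PHT1;1, a high-affinity importer, went from 107, 106 and 90.6 CPM to 13.3, 19.7 and 14.8 CPM (log2 fold change -2.67 ± 0.16 (SE), edgeR adjusted p = 1.7e-07), and its neighbour PHT1;2 from 78.8, 76.2 and 65.5 CPM to 10.7, 15.1 and 15.1 CPM (log2 fold change -2.43 ± 0.16). The pair shares sequence, with 38.7% and 40.4% of their 50-base words found elsewhere in the genome, so their separate values are uncertain. PHF1, which moves these importers to the plasma membrane, fell as well (log2 fold change -1.15 ± 0.13). PS2, a pyrophosphatase, rose (0.72 ± 0.12).

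Some genes of ribosomes rose by small steps and many histone genes fell. Of 327 genes of ribosomal proteins, 71 of 293 tested members rose and 3 fell (median log2 fold change 0.40). The count was sensitive to the EV libraries, with 38 rising without EV replicate 2, 39 without EV replicate 3, 47 with all 9 EV libraries and a batch term and 41 in the model over the 21 libraries of batch 2. Of nucleolar and rRNA processing genes, 8 of 61 tested members rose and 1 fell (median log2 fold change 0.16), a share near that of all genes, although FIB2, a fibrillarin of rRNA methylation, rose from 10.8, 5.60 and 8.53 CPM to 28.8, 24.7 and 22.2 CPM (log2 fold change 1.61 ± 0.24), a call that was not made with all 9 EV libraries and a batch term (edgeR adjusted p = 0.106). Without DIV2 replicate 3 the number that rose was 14, without EV replicate 3 or in the model over 21 libraries it was 5, and with all 9 EV libraries it was 4, while 2 fell without DIV2 replicate 2 and 0 fell without EV replicate 1 or 2 and in these models. Of core and linker histones, 17 of 38 tested members fell (median log2 fold change -0.71), and HTB9 went from 78.6, 71.1 and 68.8 CPM to 27.9, 29.2 and 20.1 CPM (log2 fold change -1.50 ± 0.15 (SE), edgeR adjusted p = 1.3e-05). Plant histone messages carry poly(A) tails and are kept by poly(A) selection. Of 53 proteasome subunits tested, 0 were called by edgeR and 0 by DESeq2, 3 were lower at an unadjusted p under 0.05, and 2 fell without DIV2 replicate 3 and 1 without DIV2 replicate 2 or without the filter on low counts.

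DIV2 was next set against the mean of the 5 other TFs of batch 2, a comparison that leaves the EV libraries out. A response common to the cells of all 6 TFs cancels in it, but one to the marker need not if the TFs differed in marker. The comparison shares its 3 DIV2 libraries with that against EV above. Of 19359 genes tested, 1813 were higher after DIV2 (9.37%) and 2137 lower (11%), 20.4% in either direction, with the same edgeR test over 18 libraries. STP2 was at 0 to 0.46 CPM over the 15 libraries of the other TFs (edgeR adjusted p = 1.1e-17), and no size is given because GBF2, HSFA6A and WRKY33 had no count in any library. CBSX5 was at 1.65 to 9.90 CPM there (log2 difference 5.54 ± 0.15) and SWEET8 at 0.55 to 3.48 CPM (log2 difference 6.29 ± 0.21). All libraries of the other TFs stayed below every DIV2 library in these genes, as the rule for choosing them required. The same held for AT3G59480 (6.89 ± 0.31), ABS2 (5.39 ± 0.32), BT2 (5.08 ± 0.25), the AP2/ERF gene AT5G61590 (4.51 ± 0.25) and the O-methyltransferase AT1G77530 (4.14 ± 0.16). DIV2 against EV gave AT5G61590 a log2 fold change of 4.39 ± 0.24 and AT1G77530 of 5.10 ± 0.14.

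On the low side, ABCG40, an ABC transporter that imports ABA, stood at 15.9, 18.2 and 17.8 CPM in DIV2, 45.5, 47.2 and 48.8 CPM in EV and 20.2 to 314 CPM over the other TFs (log2 difference -2.49 ± 0.17, edgeR adjusted p = 1.3e-12, or -1.58 with only MYB3 and MYBR1 as the other TFs). WRKY55 ranged over 45.4 to 529.9 CPM after the other TFs and was highest after WRKY33 (log2 difference -2.43 ± 0.18). RLP24, a receptor-like protein, differed from the other TFs by -3.05 ± 0.44 (-3.70 without DIV2 replicate 1 and -2.43 without DIV2 replicate 3), while against EV its log2 fold change of -1.45 ± 0.84 did not pass (edgeR adjusted p = 0.26), although it passed in the model over the 21 libraries of batch 2 (-1.49, edgeR adjusted p = 0.028). The others were AT5G19880 (-3.16 ± 0.36, or -3.88 without DIV2 replicate 1 and -2.08 with only MYB3 and MYBR1), AT2G37440 (-2.73 ± 0.26), RLK1 (-2.63 ± 0.26), AT5G16170 (-2.58 ± 0.22) and AT1G25370 (-2.75 ± 0.30). Against EV the last 2 had log2 fold changes of -2.61 ± 0.26 and -2.51 ± 0.42. Like WRKY55, the genes ABCG40, AT5G19880, AT2G37440 and AT5G16170 were highest after WRKY33, whose libraries enter the mean of the other TFs.

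**Figure D5:**
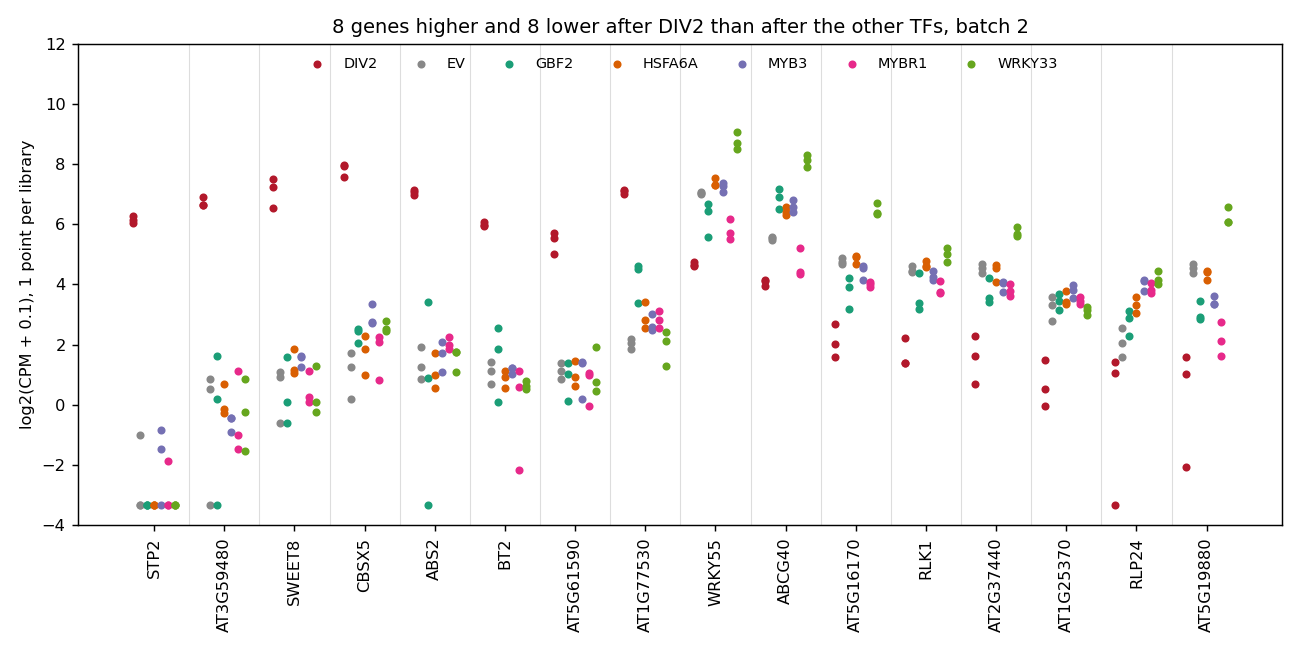
Levels of the 8 genes higher and the 8 lower after DIV2 than after the other TFs are given as log2(CPM + 0.1), with 1 point for each of the 21 libraries of batch 2, coloured by group. DIV2 points in red stand above all others for STP2 to AT1G77530 and below all other TFs for WRKY55 to AT5G19880. WRKY33 points are the highest for WRKY55, ABCG40, AT5G16170, AT2G37440 and AT5G19880.

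The lists described above were counted again against the other TFs, and fewer members were called in several of them. Over all genes tested, 9.37% were higher and 11% lower in this comparison. Among clade A PP2C phosphatases 2 of 8 tested members were higher (median log2 difference 0.00), where HAI3 differed by 0.84 ± 0.27, HAI2 by 0.90 ± 0.16 and ABI2 by 0.00 ± 0.21. For dehydration and cold markers 5 of 15 tested members were higher (median log2 difference 0.23), with COR47 at 1.44 ± 0.07 and KIN1 at 0.23 ± 0.17. SNRK2-8 (3.54 ± 0.14) and PYL5 (2.24 ± 0.16) were also higher than after the other TFs. In the sugar starvation list 11 of 25 tested members were higher (median log2 difference 0.27), and among NAC factors 25 of 72 tested members were higher and 3 were lower (median log2 difference 0.27). Of the sugar carriers 11 of 23 tested members were higher and 3 were lower (median log2 difference 0.51). Of the ABA receptors 3 of 7 tested members were higher (median log2 difference 0.56), of the SnRK2 kinases 2 of 9 tested members were higher (median log2 difference 0.06), of the ABA-response bZIPs 1 of 8 tested members was higher (median log2 difference 0.07) and of genes of ABA synthesis and breakdown 2 of 9 tested members were higher and 2 were lower (median log2 difference 0.64). For trehalose, galactinol and raffinose enzymes 7 of 25 tested members were higher and 4 were lower (median log2 difference 0.14). Among ERF, RAP2 and DREB factors 15 of 54 tested members were higher and 6 were lower (median log2 difference 0.04), among MYB domain proteins 16 of 87 tested members were higher and 11 were lower (median log2 difference 0.09) and among HD-Zip and homeobox genes 18 of 56 tested members were higher and 5 were lower (median log2 difference 0.63). The lower shares of these lists (11.1%, 12.6% and 8.93%) were near that of all genes. Of the SAUR genes 7 of 25 tested members were higher and 2 were lower (median log2 difference 0.25), against a median of 1.20 relative to EV, and of the JAZ repressors 2 of 11 tested members were higher and 1 was lower (median log2 difference 0.13). Among the R-R-type MYB relatives of DIV2 0 of 7 tested were called.

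The remaining lists described above were counted in the same way, again beside 9.37% higher and 11% lower over all genes tested. Among pattern receptors 13 of 19 tested members were lower (median log2 difference -0.59). Among cysteine-rich receptor kinases 1 of 30 tested members was higher and 20 were lower (median log2 difference -0.88), and among phosphate genes 1 of 32 tested members was higher and 15 were lower (median log2 difference -0.51). Of histones 9 of 39 tested members were lower (median log2 difference -0.17), of ribosomal proteins 110 of 301 tested members were higher and 2 were lower (median log2 difference 0.59), of nucleolar and rRNA processing genes 17 of 62 tested members were higher (median log2 difference 0.36) and of proteasome subunits 2 of 53 tested members were higher (median log2 difference 0.09). Among WRKY factors 13 of 63 tested members were higher and 24 were lower (median log2 difference -0.28), among camalexin and indole glucosinolate genes 3 of 18 tested members were higher and 7 were lower (median log2 difference -0.37) and among genes of secretion and membrane fusion 2 of 26 tested members were higher and 10 were lower (median log2 difference -0.34). The auxin transport genes, of which 6 fell against EV, had none lower here, as 2 of 19 tested members were higher (median log2 difference -0.10). Of the Aux/IAA genes 1 of 23 tested members was higher and 6 were lower (median log2 difference -0.23) and of expansins 1 of 14 tested members was lower (median log2 difference -0.10). Of the GH3 amido synthetases 2 of 9 tested members were lower (median log2 difference -0.18). For salicylic acid synthesis and signalling the balance turned, since 1 of 20 tested members was higher and 6 were lower (median log2 difference -0.08), where 7 had risen and 4 fallen against EV, and the difference between the comparisons was not tested. Among Casparian strip and suberin genes 4 of 30 tested members were higher and 3 were lower (median log2 difference 0.23), among aquaporins 3 of 24 tested members were higher and 5 were lower (median log2 difference -0.61) and among xyloglucan endotransglucosylases 4 of 20 tested members were higher and 2 were lower (median log2 difference -0.26). Shares near those of all genes were the Casparian strip list in both directions (13.3% and 10%), aquaporins higher (12.5%) and xyloglucan endotransglucosylases lower (10%). Expansins lower (7.14%) lay under the share of all genes. SARD1 (0.11 ± 0.11) and PBS3 (-0.04 ± 0.12), which rose against EV, did not differ past the threshold from the other TFs (edgeR adjusted p = 0.58 and 0.91), and EDS1 was lower than both references (-1.11 ± 0.12 against the other TFs).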

How the data were processed

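Root protoplasts expressing DIV2, another TF or no TF were profiled by RNA sequencing. Per the submitters' processing notes and the study's methods, HISAT2 2.0.5 was the authors' aligner, with TAIR10 as the genome, and they deposited whole read counts per gene for 33016 gene IDs, 1 table per library, with no normalization. The strand setting and the annotation version are not given in the sources used here. The study used DESeq2 1.22.1 with a batch term and removed genes that responded to cycloheximide; that filter was not applied here. The 6 libraries compared were separate, since no pair agreed within the counting noise.

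The counts were filtered in edgeR 4.0.16 (R 4.3.3) at a minimum count of 10, scaled by TMM and fitted with the quasi-likelihood test for DIV2 against EV (6 libraries) and DIV2 against the mean of the other TFs (18 libraries, EV not in the fit). Benjamini-Hochberg FDR under 0.05 made a call. The SE of a log2 fold change is its absolute value over the square root of the F statistic. The intervals of promoter shares treat promoters as independent draws and cover no other error. Reads without molecular identifiers are not independent molecules.

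DIV2 and the 101 gene lists, matched by symbol or product, were chosen with earlier results of these data known, and wrongly matched members were replaced after values were seen. The text names the 12 genes with the largest change in each direction against EV. They were chosen among called nuclear protein-coding genes averaging log2 CPM 3 or more, with groups that did not overlap. Up to 4 called members per list and direction are named, and some but not all tested members of lists of up to 12. The R-R-type MYB relatives and the 8 genes in each direction against the other TFs are named too. A further 15 genes were named after their values were seen (STP1, STP4, SUC1, ERDL6, RAB18, ERD1, P5CS1, RD26, LTI65, TPS10, FLS2, EFR, CERK1, BAK1 and SOBIR1). Gene names, positions and promoters came from RefSeq on TAIR10.1, which held 32795 of the IDs. Alternatives were DESeq2 1.42.0, edgeR with DESeq2's size factors, edgeR on unfiltered counts, all 9 EV libraries of the series with a batch term, a model over the 21 libraries of batch 2, removal of 4 loci beside the rRNA genes, only MYB3 and MYBR1 as the other TFs, a replicate block, and each library left out. The fits were tested on simulated data.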

Additional observations from a re-analysis of the deposited data

How the results depend on the processing

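The counts of called genes kept within 1.5 times their value under each alternative tried, except that of the repressed genes without EV replicate 2, and none of the genes called against EV changed sign. Against the other TFs, 9 of the higher and 69 of the lower genes changed sign with only MYB3 and MYBR1 as the other TFs, and none did under the other alternatives. Without any 1 library the induced genes numbered 1578 to 2434 and the repressed genes 1362 to 2472, and the lowest of each came without EV replicate 2. Against the other TFs, 1389 to 1509 genes were higher and 1683 to 1863 lower without any 1 DIV2 library. DESeq2 called 2348 genes induced and 2234 repressed, and all 9 EV libraries with a batch term gave 1645 and 1770. Without the filter on low counts there were 2210 induced and 2360 repressed genes.

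Of 2054 values of the 158 genes named in the text, each under an alternative against EV, 2005 kept their direction and call, 41 lost the call, 8 gained it and 0 reversed, and the settings are given beside the genes and lists concerned. The cause was not tested. With replicate number as a block, edgeR called 2202 induced and 2232 repressed genes against EV and 1908 higher and 2291 lower against the other TFs. With the block 1 dehydration marker, 1 SAUR gene, 2 nucleolar genes and 2 sugar carriers fell (0, 2, 1 and 1 without it) and 2 aquaporins rose (1 without it). Same-numbered libraries of DIV2 and EV correlated at 0.066, -0.010 and 0.060 in their deviations from the group means. Replicates 1 and 3 of DIV2 correlated best with the EV library of the same number, and replicate 2 with EV replicate 1 (0.028). Against each of the other TFs, same-numbered pairs of replicates 1 and 3 were also positive (0.050 and 0.054 for MYBR1, 0.017 and 0.016 for GBF2). Pairs of replicate 2 had both signs (0.017 for MYBR1, -0.020 for HSFA6A). Whether libraries of the same number form pairs was not tested. Of 32 promoter shares, 15 left their interval in the 250 bases before the start alone. This window lies within the longer one, so a share can only stay or fall, and the number does not measure stability. TATCCA went from 16.2 to 13.9% over all genes, from 21.7 to 18.3% among induced and from 15.2 to 13.4% among repressed genes.

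Depth limits the genes near 0 in EV, where folds against no EV count are given as bounds and those against few counts are imprecise, and OST1, ABI5 and ABF2, whose SE or low level leaves a change undetectable here. With 3 libraries in a group and wells filled from a transfection, the spread between independent cultures was not measured.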

Other observations

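Other carriers and enzymes outside the functions described above also changed after DIV2, and these lists were likewise chosen with earlier results of these data known. Over all genes tested 12.2% rose and 11.8% fell. Of the potassium and sodium transport genes, 9 of 28 tested members rose and 5 fell (median log2 fold change -0.18), so the median lay below 0 although more members rose than fell, and 3 fell without DIV2 replicate 2, EV replicate 1 or EV replicate 2, or with all 9 EV libraries and a batch term. CHX17, a cation/proton exchanger of roots, went from 30.0, 26.8 and 22.3 CPM in EV to 224, 230.0 and 246 CPM after DIV2 (log2 fold change 3.14 ± 0.13 (SE), edgeR adjusted p = 1.0e-08), and it also stood above the other TFs (log2 difference 2.56 ± 0.11, edgeR adjusted p = 7.1e-17). HAK5, a high-affinity potassium importer, stood at 190.4, 225 and 207 CPM in the DIV2 libraries and 46.0, 42.0 and 43.1 CPM in the EV libraries (log2 fold change 2.25 ± 0.11), while its log2 difference from the other TFs was 0.40 ± 0.09. CNGC10, a cyclic nucleotide gated channel, fell from 144, 140.0 and 156 CPM to 53.1, 46.6 and 68.5 CPM (log2 fold change -1.39 ± 0.14), and so did NHX4, a sodium/proton exchanger (-0.92 ± 0.15). Against the other TFs 7 of 30 tested members of this list were higher and 6 lower (median log2 difference -0.08). Over all genes tested 9.37% were higher and 11% lower there.

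Families of enzymes of detoxification and of oxygen chemistry were counted beside 12.2% induced and 11.8% repressed over all genes tested. The repressed shares of cytochrome P450 enzymes (7.41%) and mitochondrial dysfunction genes (7.14%) lay under that of all genes. So did the induced share of NADPH oxidases and hydrogen peroxide scavengers (10%). Of the tau glutathione transferases, which join glutathione to foreign and reactive compounds, 11 of 22 tested members rose and 4 fell (median log2 fold change 0.87), with GSTU25 going from 28.3, 22.2 and 28.8 CPM to 61.1, 75.9 and 116 CPM (log2 fold change 1.68 ± 0.21) and GSTU12 from 208, 205 and 205 CPM to 69.3, 65.4 and 77.8 CPM (-1.54 ± 0.10). Of the cytochrome P450 enzymes, 25 of 108 tested members rose and 8 fell (median log2 fold change 0.31), or 14 without DIV2 replicate 3, and CYP71B2 went from 0.28, 0.52 and 0.40 CPM to 17.0, 9.18 and 12.9 CPM (log2 fold change 4.97 ± 0.39 (SE), edgeR adjusted p = 1.6e-06). Of the class III peroxidases, 9 of 39 tested members rose and 12 fell (median log2 fold change -0.30), with Prx37 going from 78.2, 88.0 and 90.2 CPM to 10.6, 9.51 and 21.5 CPM (log2 fold change -2.61 ± 0.25 (SE), edgeR adjusted p = 7.8e-06). Among NADPH oxidases and hydrogen peroxide scavengers 3 of 30 tested members rose and 9 fell (median log2 fold change -0.32), with 5 falling without EV replicate 2 or with all 9 EV libraries and a batch term, and 5 rising without DIV2 replicate 1. The catalases CAT1 (log2 fold change 0.71 ± 0.13) and CAT3 (0.78 ± 0.14) rose and the ascorbate peroxidase APX1 fell (-0.89 ± 0.10). Of the genes known to respond to mitochondrial dysfunction, 7 of 14 tested members rose and 1 fell (median log2 fold change 0.43). AOX1D, an alternative oxidase, stood at 98.4, 123 and 193 CPM in the DIV2 libraries and 31.4, 34.8 and 46.1 CPM in the EV libraries (log2 fold change 1.89 ± 0.22 (SE), edgeR adjusted p = 4.9e-05), whereas its log2 difference from the other TFs was -0.04 ± 0.18 and did not pass (edgeR adjusted p = 0.94). Against the other TFs, 2 of 14 mitochondrial dysfunction genes were higher and 2 lower (median log2 difference 0.02), beside 9.37% and 11% of all genes tested. Of the tau glutathione transferases 9 of 24 were higher and 2 lower, and of the P450 enzymes 21 of 137 and 17. Of the class III peroxidases 9 of 50 were higher and 10 lower, and of the NADPH oxidase list 3 of 31 and 6.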
